A study of Nannochloropsis oceanica strain IMET1 with 6 samples.

Results

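Cis hubs are 1-kb stretches of a chromosome that are linked by Hi-C to many other stretches of the same chromosome. For every 1-kb bin the different partner bins were counted in the list of significant intra-chromosomal interactions (cis-interactions) of each group, and a bin with 10 or more partners in at least 1 list was taken as a hub. This gave 112 hubs among the 7503 bins that appear in any cis list. The hubs were chosen by their partner counts in C0, N1 and N2, so these counts are given as a description and carry no test.

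The samples are cells of the marine microalga Nannochloropsis oceanica, strain IMET1, all of the same strain and grown under continuous light. C0 is the nitrogen-replete (NR) culture harvested in the logarithmic phase, and N1 and N2 are cells washed and kept for 1 day and 2 days in nitrogen-free medium (nitrogen deprivation, ND). Per the study's methods, the light was stronger in the culture that gave C0 than after the transfer. Light intensity and nitrogen thus differ together between C0 and both ND groups, and their parts cannot be told apart. Hi-C was performed on 2 biological replicates per group, 6 libraries in all, and the study asked how chromosome folding changes under ND. The interactions were called on the pooled replicates, so each group has a single value per bin pair, and intervals below cover counting error only, not the spread between cultures.

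In Hi-C, chromatin is crosslinked and cut, and ends that lie close together are ligated, so that bins meeting often in the nucleus give many joined read pairs, called contacts. Contacts fall off steeply with distance along the chromosome, so a bin pair counts as significant only when it has more contacts than bins at that distance are expected to have. Bins with many significant partners are often called interaction hubs, and in other organisms they can coincide with active promoters and enhancers, with anchors of loops, or with repeats. Chromosome ends carry the telomeres, which in many organisms gather at the nuclear periphery. No nuclear gene annotation was used here, so the hubs are named by position in the study's IMET1 genome (version V2) and not by the genes they hold.

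There were 39 hubs in C0 (95% Poisson interval 27.7 to 53.3), 0 in N1 (upper limit 3.69) and 91 in N2 (73.3 to 112). They made up 0.810% of the 4816 listed bins in C0, 0% of 1643 in N1 and 1.83% of 4973 in N2. A total of 18 bins were hubs at both C0 and N2, 21 in C0 only and 73 in N2 only. Just below the threshold lay 37 bins whose highest count was 9, of which 16 were near a chromosome end, and just above it lay 27 hubs whose highest count was 10, of which 8 were near an end. The bins just outside had a median of 9 partners in C0, 1 in N1 and 9 in N2, and those just inside had 6, 1 and 10.

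The cis-interactions with at least 1 end in a hub are called hub interactions. They numbered 817 in C0 (762 to 875), 115 in N1 (94.9 to 138) and 1244 in N2 (1176 to 1315). This was 18.3% of the 4456 cis-interactions in C0, 12.1% of 948 in N1 and 24.7% of 5042 in N2, with 16.5%, 11.9% and 19.9% of the listed contacts. The groups differed in expected counts: a typical pair of bins 10 kb apart had 8.69 in C0, against 2.93 in N1 and 4.65 in N2. These counts hold both the depth of a group and its fall-off of contacts with distance.

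Hubs lay on 28 of the 30 chromosomes, with none on chromosomes 10 and 16. Chromosome 20 held the most, with 10 hubs on 843 kb (11.9 per Mb). Chromosome 7 had 9 hubs, chromosome 6 had 8 and chromosome 18 had 7. Neighbouring hubs were a median of 149 kb apart, and only 6 neighbouring pairs lay within 5 kb, so that joining hubs within 5 bins of each other still left 106 separate regions.

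By position the hubs fell into 2 classes, which are described separately. End hubs lay within 20 kb of a chromosome end and numbered 21, on 10 chromosomes, with 9 at the left and 12 at the right end. Interior hubs numbered 91, on 28 chromosomes, and the one nearest to an end lay 26 kb from it (median 269 kb). Of all 7503 listed bins, 499 lay within 20 kb of an end. The C0 list supplied most end hubs and the N2 list most interior hubs: 19 of the 21 end hubs reached 10 partners in C0 and 4 in N2, against 20 and 87 of the 91 interior hubs.

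End hubs had a median of 10 partners in C0 (range 6 to 14), 0 in N1 (0 to 3) and 3 in N2 (0 to 14). Partners were fewer in N2 than in C0 in 18 of 21 end hubs (85.7%), and the median difference was -8 partners. Of the 20 end hubs listed at both times, 17 (85%) had fewer partners in N2. When pairs with fewer than 10 contacts were left out, 6 end hubs remained and 3 of them (50%) had fewer partners in N2. Interior hubs had a median of 6 partners in C0 (0 to 24), 1 in N1 (0 to 5) and 12 in N2 (0 to 26). They had more partners in N2 than in C0 in 81 of 91 cases (89%), fewer in 7 and equal numbers in 3, with a median difference of 7 partners. A bin chosen for a high count in 1 list tends to be lower in the other. Most hubs of both classes reached 10 partners in only 1 of the C0 and N2 lists, so the hub rule itself fixed their direction. These shares thus follow largely from the choice of hubs and are a description only. Over all 7061 bins of the C0 or N2 list, 44.4% had more and 38.6% had fewer partners in N2.

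Fewer partners in N2 were found near chromosome ends as a whole, not only at hubs. Of all 464 listed bins within 20 kb of an end, 79.3% had fewer partners in N2 than in C0 and 11.4% had more. Of the 6597 other bins, 35.8% had fewer and 46.8% had more. The lower counts at the ends were thus also found in bins that the hub rule did not choose. Among the other bins gains outnumbered losses, the same direction as in interior hubs.

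**Figure D1:**
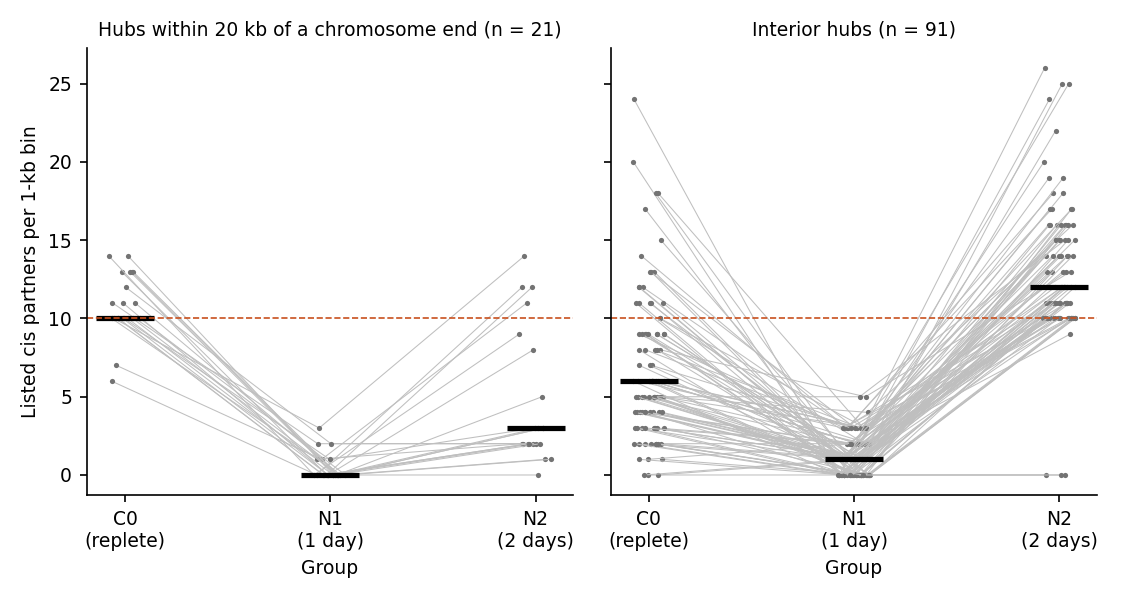
Number of listed cis partners (y axis, bins) of each hub in C0, N1 and N2 (x axis), for 21 end hubs (left) and 91 interior hubs (right). Each grey line is 1 hub, black bars are medians and the dashed line marks the 10 partners that make a hub. The median of end hubs goes from 10 to 0 to 3 and that of interior hubs from 6 to 1 to 12.

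The 10 hubs with the most partners in any list were all interior. The last 2 places, at 18 partners, were shared by 3 hubs and were given by the sum over the lists, which left out chr9:954001-955000 (6 partners in C0, 2 in N1 and 18 in N2). Of the 10, 8 had more partners in N2 than in C0, 1 had fewer and 1 had the same number, and only 4 had any partner in N1. The plot of partner positions shows their partners on both sides, packed within a few kb and then scattered to beyond 100 kb.

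The hub chr21:343001-344000 had 24 partners in C0, 0 in N1 and 26 in N2. Its partners lay on both sides, 11 lower and 13 higher on the chromosome in C0 and 12 and 14 in N2. They formed 16 runs of adjacent bins in C0 and 18 in N2, so most of the count did not come from a few wide patches. The farthest partner was 66 kb away in C0 and 271 kb away in N2. The pair with chr21:339001-340000, 4 kb away, had 69 contacts in C0 (5.08 times the expected count, 3.95 to 6.43) and 97 in N2, while the pair with chr21:346001-347000, 3 kb away, had 116 in C0 (4.89 times, 4.04 to 5.86) and 46 in N2 (4.64 times, 3.39 to 6.18). Relative to the expected count, the second pair thus hardly moved, although its raw contacts were fewer. The median ratio of observed to expected contacts over all partners was 6.06 in C0 and 10.5 in N2.

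The hub chr15:838001-839000 had 18 partners in C0, 3 in N1 and 25 in N2, and it was the hub of the leading 3 with partners in every group. At N1 its partners were 2 to 3 kb away, and the longest reach was 77 kb in C0 and 559 kb in N2. The pair with chr15:836001-837000, 2 kb away, had 136 contacts in C0, 31 in N1 and 142 in N2. Against the expected counts of 49.1, 6.14 and 38.9 these were 2.77 times (2.32 to 3.27), 5.05 times (3.43 to 7.16) and 3.65 times (3.07 to 4.3). The order of the ratios was thus not that of the contacts, and the intervals of C0 and N1 did not overlap. The bias factor of this bin, the authors' correction for how visible a bin is, where 1 is average, was 1.4 in C0, 0.58 in N1 and 1.99 in N2. It was highest in N2, while the expected count of the pair was highest in C0.

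The hub chr22:550001-551000 showed the largest gain, from 6 partners in C0 and 0 in N1 to 25 in N2. At N2 it had 10 partners lower and 15 higher on the chromosome, 19 of them more than 10 kb away. The pair with chr22:527001-528000, 23 kb away, had 15 contacts in C0 (8.51 times the expected count, 4.76 to 14) and 23 in N2 (25.1 times, 15.9 to 37.7). The pair with chr22:554001-555000, 4 kb away, had 64 contacts in C0 (5.14 times, 3.96 to 6.56) and 78 in N2 (9.9 times, 7.82 to 12.4). Both partners were thus in place in C0, and the intervals of their ratios in N2 lay above those of C0.

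Other leading hubs changed less in number. The hub chr29:394001-395000 had 17 partners in C0 and 22 in N2, and its bias factor was among the lowest of all hubs (0.5 in C0, 0.55 in N2). The hub chr3:333001-334000 had 20 at both times, and chr3:915001-916000 had 18 in C0 and 16 in N2. The hub chr25:243001-244000 went from 11 to 24, chr18:265001-266000 from 12 to 19, chr14:712001-713000 from 6 to 19 and chr1:441001-442000 from 12 to 18. Among the 18 bins that were hubs at both times, 11 had more partners in N2 and 4 had fewer.

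**Figure D2:**
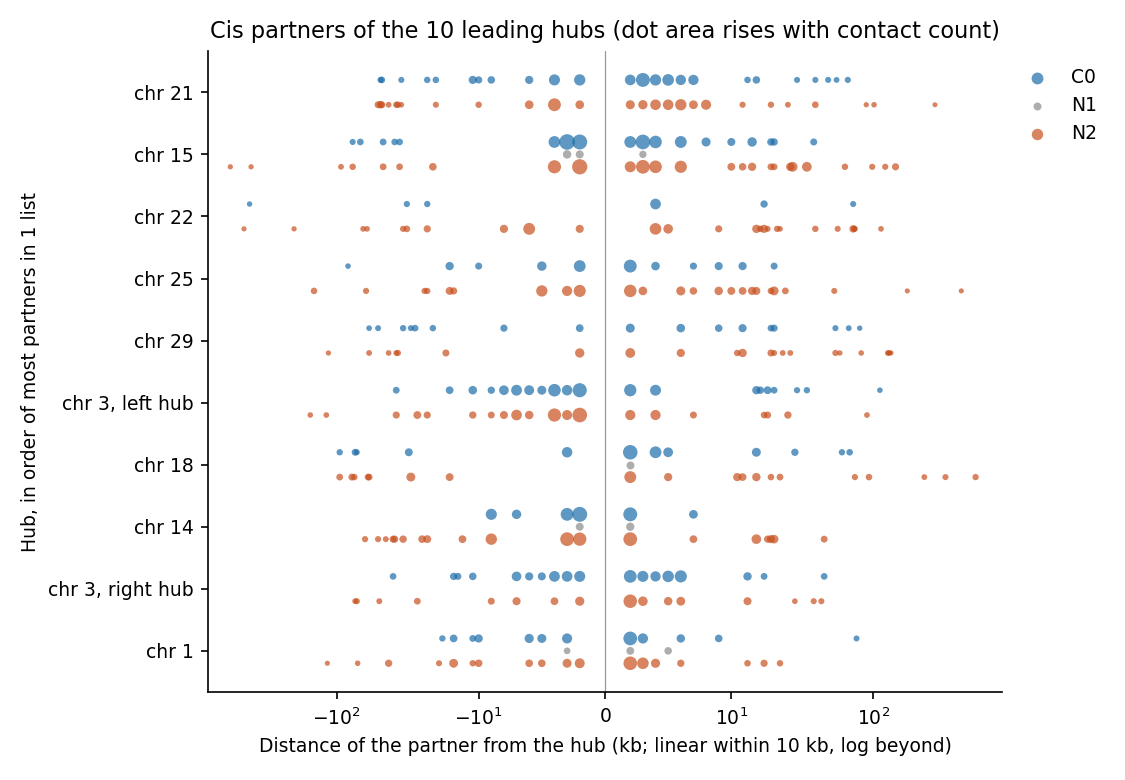
Distance of every listed cis partner from its hub (x axis, kb, negative towards the left end of the chromosome, linear within 10 kb and logarithmic beyond) for the 10 hubs with the most partners (y axis), with 1 row of dots each for C0, N1 and N2. Dot area rises with the contact count. Partners lie on both sides of every hub, the largest dots are within a few kb, and the farthest N2 partner lies beyond the farthest C0 partner at all 10 hubs.

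After chr22:550001-551000, the next largest gains were 15, 14 and, at 3 hubs, 13 partners, the last including chr14:712001-713000 and chr25:243001-244000, of which chr25:243001-244000 was already a hub in C0. The hub chr13:326001-327000 went from 1 partner in C0 and 0 in N1 to 16 in N2. The hub chr27:518001-519000 went from 2 and 0 to 16, and its farthest N2 partner was 342 kb away. The hub chr6:49001-50000 went from 3 and 1 to 16, of which 14 were more than 10 kb away, the farthest 433 kb. These N2 partners were spread out, in 13, 14 and 14 runs of adjacent bins.

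The largest losses came from both classes. The interior hub chr3:1542001-1543000 had 13 partners in C0 and was in neither the N1 nor the N2 cis list. In the N2 trans list it carried -1 in place of a bias factor, the mark of a bin for which none could be used. The interior hubs chr6:831001-832000 and chr25:156001-157000, with 11 partners each in C0, were also in neither list. These 3 bins had C0 factors of 0.52, 0.51 and 0.61, close to the lower limit of 0.5 for a usable factor. The first had no usable factor in N2, so its absence there cannot be read as a loss of contacts. For chr6:831001-832000 and chr25:156001-157000, absence from the N2 list cannot be told apart from a bin that was left out. The same holds for the end hub chr7:11001-12000, with 10 partners and a factor of 0.51 in C0, which was also in neither list. The end hubs chr20:832001-833000 (14 partners in C0, 3 in N2) and chr23:6001-7000 (13 and 2) were still listed in N2, with factors of 0.57 and 0.95.

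Interior hubs were narrow. The bins directly next to an interior hub were in the cis list in 2.75% of 182 cases in C0 (0.898% to 6.29%), 0% in N1 (upper limit 2.01%) and 4.95% in N2 (2.29% to 9.18%). Next to any listed bin, the neighbour was listed in 15.4%, 5.94% and 18.2% of cases. Bins 2 kb from an interior hub were listed in 50.5%, 31.9% and 63.7% of cases, many of them as its own partner, since 2 kb is the shortest distance in the lists. A mean of 6.82 partners in C0 and 13.1 in N2 in the hub bin thus stood beside 0.0769 and 0.198 in the bin to the left and 0.011 and 0.022 in the bin to the right.

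End hubs were embedded in neighbours with partners of their own. The bins next to an end hub were listed in 63.4% of 41 cases in C0 (46.9% to 77.9%), 17.1% in N1 and 43.9% in N2. At C0 the bins 2 to 10 kb away held a mean of 1.24 to 3.83 partners, depending on the distance, as the profile around the hubs shows. Of these bins, 28.6% to 73.7% were in the C0 list at each distance, so many held none. Whether the sharp edges of interior hubs come from the sequence of single bins, such as how many cutting sites or unique stretches they hold, was not tested, since no genome sequence was used here.

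**Figure D3:**
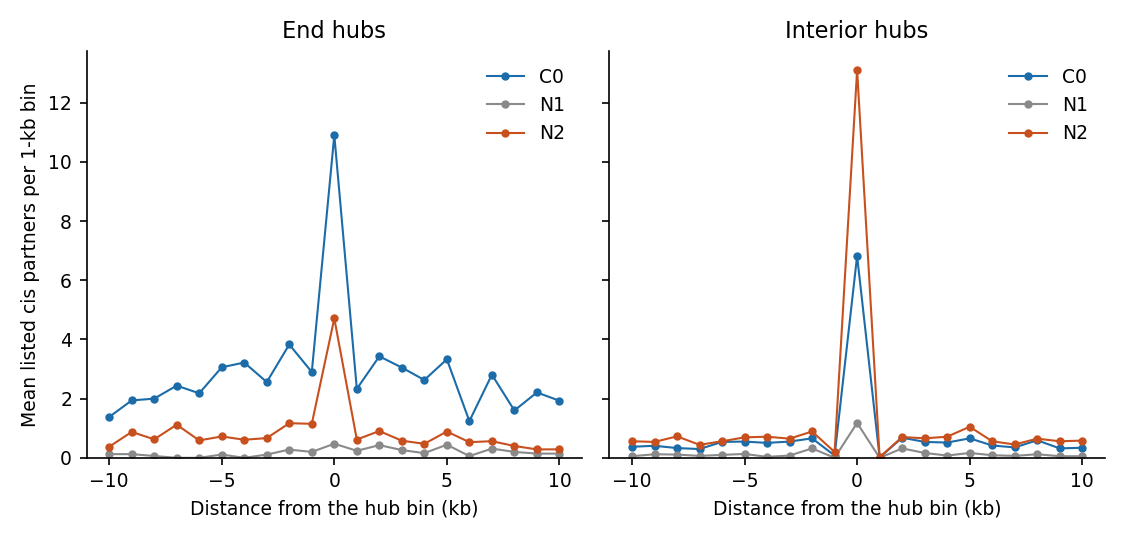
Mean number of listed cis partners per 1-kb bin (y axis) by distance from the hub bin (x axis, kb) for end hubs (left) and interior hubs (right) in C0, N1 and N2. At interior hubs the mean is 6.82 in C0 and 13.1 in N2 in the hub itself and below 0.2 in the bins on either side. End hubs sit on a shoulder of bins with means of 1.24 to 3.83 partners in C0.

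The partners of hubs showed no preferred side. Over all hubs, 49.7% of 849 partners in C0 lay at lower coordinates (46.3% to 53.1%), 47.9% of 117 in N1 and 49% of 1288 in N2 (46.2% to 51.8%). Of the interior hubs in each list, 77 of 88 had partners on both sides in C0, 23 of 57 in N1 and 88 of 88 in N2. Single hubs could be lopsided, and the leftmost bin chr20:1-1000, which can have no lower partner, had 12 higher partners in N2. Among interior hubs the largest imbalance in N2 was 10 partners, at chr11:1018001-1019000 with 12 lower and 2 higher. The hub chr18:170001-171000 was lopsided the other way, with 1 lower and 10 higher partners in N2.

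Interior hubs reached farther in N2 than in C0. The median distance of their interactions was 7 kb in C0 (6 to 8), 2 kb in N1 and 13 kb in N2 (12 to 15), against 4, 2 and 4 kb over all cis-interactions. Interactions of up to 5 kb numbered 261 in C0 and 315 in N2, and those over 5 to 10 kb went from 137 to 178. Those over 10 to 100 kb went from 200 to 564 and those over 100 kb from 14 to 97. The added interactions of interior hubs were thus mostly longer than 10 kb, and 49 of the 91 interior hubs had a partner more than 100 kb away in N2, against 9 in C0 and 0 in N1. Most interior hubs were chosen for their N2 counts, so more and longer interactions in N2 follow in part from the hub rule.

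Hubs took a larger part of the long interactions than of the short ones. Of all interactions up to 5 kb, 11.9% had a hub end in C0, 11.1% in N1 and 12.3% in N2. Over 10 to 100 kb this was 38%, 31.8% and 46.4%, and over 100 kb it was 24.5%, 4.76% and 61.2%. The shortest listed distance is 2 kb, so at most 8 partners of a bin can lie within 5 kb, and a bin with 10 partners must have longer interactions too. Both the level of these shares and the difference between distance classes thus follow in part from the hub rule.

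Over 100 kb, end hubs accounted for 21.3% of the 432 interactions in C0 and interior hubs for 3.24%. At N2, end hubs accounted for 12.2% of 196 and interior hubs for 49.5%. When interactions that join 2 chromosome ends were left out, interior hubs were part of 14 of 98 interactions over 100 kb in C0 (14.3%), 0 of 3 in N1 and 97 of 142 in N2 (68.3%). Since 87 of the 91 interior hubs reached 10 partners in N2 and 20 in C0, while 19 of the 21 end hubs did so in C0 and 4 in N2, these shares were raised in the list that chose the hubs, and they are a description only.

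**Figure D4:**
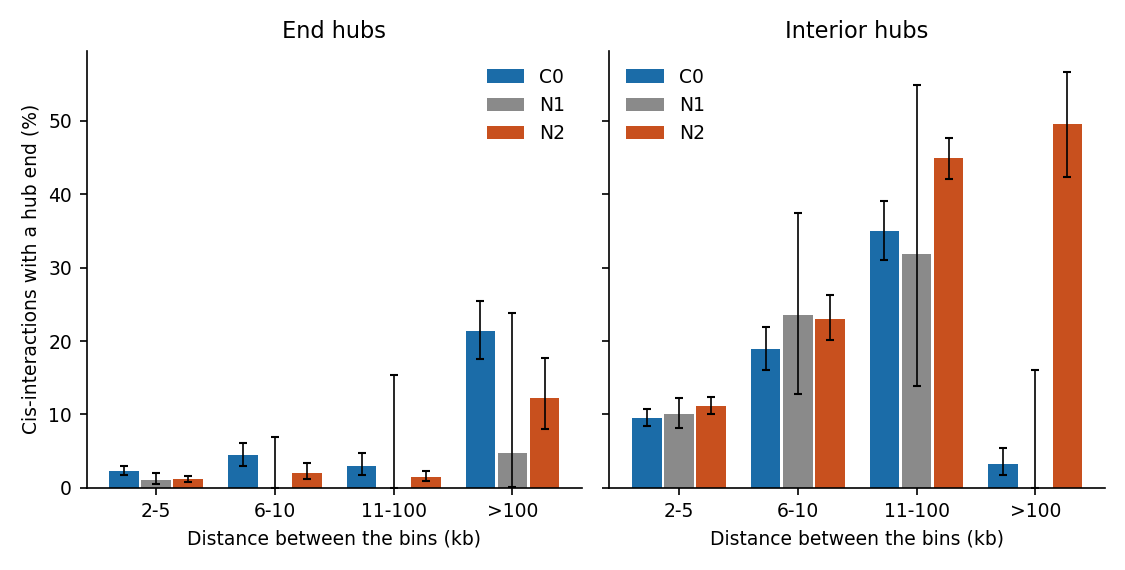
Share of all cis-interactions that have an end in an end hub (left) or an interior hub (right), in percent (y axis), by distance between the bins (x axis, kb) and group. Error bars are exact 95% binomial intervals and cover counting error only. Interior hubs take 3.24% of the interactions over 100 kb in C0 and 49.5% in N2.

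End hubs reached across their chromosome. Of their 205 interactions in C0, 86 joined the left end of a chromosome to its right end, against 0 of 10 in N1 and 21 of 91 in N2. Partners more than 100 kb away were found for 20 of the 21 end hubs in C0, 1 in N1 and 11 in N2. The longest was chr2:12001-13000 with chr2:1654001-1655000, 1642 kb apart, with 6 contacts in C0 (43.4 times its expected count, 15.9 to 94.5) and 5 in N2 (61.4 times, 20 to 143). It was thus kept in N2 with a ratio whose interval overlapped that of C0.

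The end hubs of chromosome 20 lost partners to unlike degrees. The hub chr20:1-1000, the leftmost bin, had 13 partners in C0, 0 in N1 and 12 in N2, and all of them lay more than 100 kb away. The bin beside it, chr20:1001-2000, had 12 partners in C0, all over 100 kb, and 2 in N2. At the right end, chr20:825001-826000 went from 11 to 8 partners, chr20:832001-833000 from 14 to 3, chr20:834001-835000 from 13 to 3 and chr20:837001-838000 from 10 to 1. All 6 end hubs of this chromosome thus had fewer partners in N2, and the leftmost bin changed least. Its bias factor was 1.48 in C0 and 1.95 in N2, close to the upper limit of 2 for a usable factor.

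The end hubs that had more partners in N2 were chr2:1654001-1655000 (6 in C0, 12 in N2), chr3:1650001-1651000 (7 and 11) and chr15:981001-982000 (10 and 14). They lay 11, 13 and 17 kb from the end. Other end hubs as far from theirs had fewer partners in N2, at 13 kb chr21:13001-14000 (10 in C0, 2 in N2), at 15 kb chr28:15001-16000 (14 and 9), at 17 kb chr20:825001-826000 (11 and 8) and at 18 kb chr18:18001-19000 (10 and 3). On chromosome 7 the 5 end hubs had 10 or 11 partners in C0 and 0 to 3 in N2.

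Hubs were also linked to each other. Hub-to-hub interactions numbered 32 in C0, 2 in N1 and 44 in N2, on 10, 2 and 16 chromosomes, and involved 33, 4 and 57 hubs. Their median ratio of observed to expected contacts was 11.6 in C0, 16.8 in N1 and 14.4 in N2, against 3.05, 4.36 and 3.93 for all cis-interactions. Hub-to-hub interactions were also longer, with median distances of 77, 44 and 78 kb against 4, 2 and 4 kb, and the longer a pair, the fewer contacts are expected and the higher the ratio it needs to be listed. At C0, 23 of the 32 joined 2 end hubs and 9 joined 2 interior hubs, while in N2, 8 joined 2 end hubs, 35 joined 2 interior hubs and 1 joined an end hub to an interior hub. None of the interior pairs in C0 spanned more than 100 kb, while 14 did in N2. Most end hubs were chosen for their C0 counts and most interior hubs for their N2 counts. The numbers of hub pairs of each class thus follow in part from the hub rule.

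The pair of interior hubs chr11:383001-384000 and chr11:388001-389000, 5 kb apart, was the only hub-to-hub pair listed in all groups. It had 69 contacts in C0 (4.85 times the expected count, 3.78 to 6.14), 19 in N1 (5.02 times, 3.02 to 7.84) and 91 in N2 (11.5 times, 9.25 to 14.1). Its ratio in N2 was above the intervals of C0 and N1, which overlapped each other. The other pair in N1, chr4:315001-316000 with chr4:398001-399000, 83 kb apart, had 7 contacts (28.6 times, 11.5 to 58.9) and was in neither the C0 nor the N2 list.

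Other interior pairs with many contacts had higher ratios in N2 as well. The pair chr28:222001-223000 and chr28:230001-231000, 8 kb apart, went from 40 contacts (3.95 times, 2.82 to 5.37) in C0 to 84 (14.1 times, 11.2 to 17.5) in N2. The pair chr6:229001-230000 and chr6:238001-239000, 9 kb apart, went from 46 (4.41 times, 3.23 to 5.88) to 70 (13 times, 10.1 to 16.4). All 9 interior hub-to-hub pairs of C0 were listed in N2 as well, and the ratio was higher in N2 in 8 of them. This was not particular to hub pairs, since nearly all interactions listed at both C0 and N2 had the higher ratio in N2.

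The highest contact counts among hub pairs in C0 were at chromosome ends. The pair chr7:1327001-1328000 and chr7:1329001-1330000, 2 kb apart, had 137 contacts in C0 (3.23 times the expected count, 2.71 to 3.82) and 59 in N2 (3.47 times, 2.64 to 4.48). The pair chr20:832001-833000 and chr20:834001-835000, also 2 kb apart, had 102 in C0 (3.31 times, 2.7 to 4.02) and 35 in N2 (3.42 times, 2.38 to 4.75). In both pairs the contacts were fewer in N2 while the intervals of the ratios overlapped. The long pairs between opposite ends were fewer in N2, with 15 of 23 end hub pairs in C0 and 3 of 8 in N2 spanning more than 100 kb. The pair chr20:1-1000 and chr20:834001-835000, 834 kb apart, remained with 17 contacts in C0 (46.2 times, 26.9 to 74) and 9 in N2 (45.7 times, 20.9 to 86.7).

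At N2 several interior hubs were linked in chains along a chromosome. On chromosome 18, the hubs chr18:170001-171000, chr18:265001-266000, chr18:493001-494000 and chr18:788001-789000 were joined by 5 hub-to-hub interactions, of which only the pair of the leftmost hubs was listed in C0. The pair chr18:265001-266000 and chr18:788001-789000, 523 kb apart, had 15 contacts in N2 (37.3 times the expected count), with an interval of 20.9 to 61.6, and was not listed in C0. On chromosome 6, chr6:49001-50000 was joined to chr6:482001-483000 over 433 kb by 7 contacts (42 times, 16.9 to 86.6), and both had over 10 more partners in N2 than in C0. On chromosome 15, the leading hub chr15:838001-839000 was joined to the end hub chr15:981001-982000, 143 kb away, by 22 contacts (25.5 times, 16 to 38.6), the only link between the 2 classes. Such chains were also found on chromosomes 20, 21, 28 and 30.

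The overlap between the lists is given as a share of each list, beside the same share over all cis-interactions. Of the 817 hub interactions of C0, 53.5% were also listed in N2 (50% to 57%), against 35.6% of all C0 cis-interactions. Of the 1244 of N2, 35.1% were also listed in C0 (32.5% to 37.9%), against 31.5%. In the N1 list, 9.3% of the C0 hub interactions (against 8.37% of all) and 6.59% of those of N2 (against 8.96%) were found. Interior hubs kept 62.4% of their C0 interactions in N2 and end hubs 26.8%. Interior hubs were mostly chosen for many N2 partners and end hubs for many C0 partners, so the choice of hubs raises the first share and lowers the second. The shares also depended on the match required: when an interaction within 5 bins counted as the same, 81.9% of the C0 hub interactions had a match in N2 and 61.3% of those of N2 had one in C0.

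The 437 hub interactions listed at both C0 and N2 had a median ratio of observed to expected contacts of 3.47 in C0 and 5.32 in N2, and the ratio was higher in N2 in 417 of them. The shift was not particular to hubs, since the medians of all shared interactions were 2.84 and 4.12 and 96.3% were higher in N2. Over all hub interactions, the median ratio was 3.87 in C0, 4.77 in N1 and 6.14 in N2. Where fewer contacts are expected, a pair needs a higher ratio to be listed, and the expected counts of N1 and N2 were below those of C0.

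**Figure D5:**
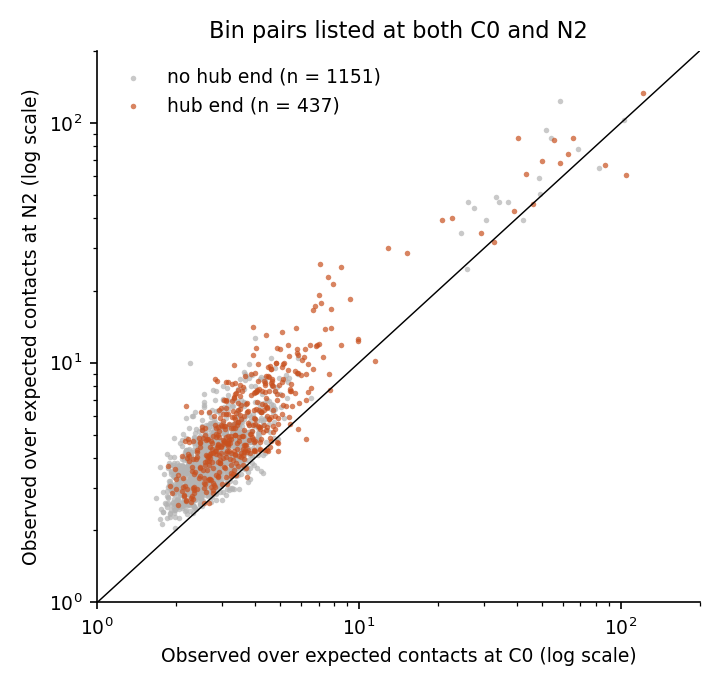
Observed over expected contacts of every bin pair listed at both C0 (x axis, log scale) and N2 (y axis, log scale), with 437 pairs with a hub end in orange and the other pairs in grey. The black line marks equal ratios. Most pairs lie above it, in both classes, with medians of 3.47 and 5.32 for hub pairs.

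At N1 no bin reached 10 partners, but the hubs of the other lists were not missing from it. Of the 112 hubs, 63 were in the N1 cis list, with a median of 1 partner over all hubs. Of the 115 hub interactions in N1, 66.1% were also listed in C0 (56.7% to 74.7%) and 71.3% in N2 (62.1% to 79.4%), against 39.3% and 47.7% of all N1 cis-interactions. Hubs are bins with many interactions in the C0 or N2 list, so the hub rule itself favours a match in those lists. Among bins with a C0 bias factor of 0.9 to 1.2, 24 of 34 hubs were in the N1 list, against 22.5% of 1261 bins of the C0 list, and with factors of 0.5 to 0.7 it was 3 of 17 against 11.7% of 854. With factors of 0.7 to 0.9 it was 12 of 21 against 19.2%, and with higher factors than 1.2 it was 22 of 37 against 21.3%. The share was thus higher for hubs in each class of factor, and lowest in the class of low factors for both.

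The hubs with 3 or more partners in N1 numbered 17. Interior hubs made up 16 of them, against 91 of all 112 hubs, and all 17 were hubs in N2, against 91 of 112. The most connected were chr6:1124001-1125000 and chr23:238001-239000 with 5 partners each and chr13:240001-241000 with 4. At C0 these had 8, 5 and 5 partners, and in N2 they had 13, 15 and 16. Their N1 partners were close, at most 5, 9 and 7 kb away, and only 4 of the 17 hubs had a partner over 10 kb away in N1. The exception in reach was the end hub chr15:981001-982000, with a partner 961 kb away by 5 contacts.

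The low partner counts in N1 were set against its low expected counts by carrying contacts over. Each C0 contact count was multiplied by the ratio of expected counts at the same distance, and the pair was kept if its Poisson probability was no higher than the highest in the N1 list. Of the 817 hub interactions of C0, 122 would have been listed at the expected counts of N1, against 115 observed in N1. The 122 are all pairs of the C0 list, while the 115 also hold pairs not listed in C0, so the sets differ. With the C0 contacts carried over, 0 bins would have kept 10 partners. Of the 1244 hub interactions of N2, 515 would have been listed and 5 bins would have kept 10 partners. The part of depth in the low N1 counts was not settled by these values, which differ with the list they start from. They also scale by expected counts, which hold the fall-off with distance as well as depth.

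Carried from C0 to the expected counts of N2, 316 of the 817 hub interactions would have been listed, against 1244 observed in N2. Of the bins, 2 would have kept 10 partners. For interior hubs the carried number was 228 and the observed number 1154, and for end hubs they were 88 and 91. The carried numbers hold only pairs listed in C0, while the observed numbers also count pairs listed in N2 and not in C0. They are thus counts of unlike sets, and near-equal numbers do not mean that the same pairs were kept. The hubs were also chosen for high counts in C0 or N2, so the carried and observed numbers are given as a description.

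The authors' bias factors of hubs moved between groups. Of the 61 hubs with a usable factor at both C0 and N1, 59 had the lower value in N1, with a median ratio of 0.673. No value over all bins is given for N1, so this cannot be read as particular to hubs. At N2 the factor was higher than in C0 in 70 of 105 hubs, a share given without that of all bins. The median ratio was 1.06 in hubs, against 0.926 over all bins. The expected count of a typical pair was lower in N2 than in C0, as given above. Whether the factors themselves took up part of the change in the hubs was not tested.

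The trans lists, which the hub rule did not use, held part of the hubs, in C0 mostly end hubs. At C0, 28 of the 109 hubs in the cis list were also in the trans list (25.7%, 17.8% to 34.9%), against 6.23% of all bins of the cis list. At N1 it was 0 of 63, against 1.10%, and in N2 25 of 108 (23.1%, 15.6% to 32.2%), against 3.82%. Of the end hubs, 20 of 21 were in the trans list in C0 and 8 of 20 in N2, while of the interior hubs it was 8 of 88 (9.09%, 4.01% to 17.1%) and 17 of 88 (19.3%, 11.7% to 29.1%). The intervals of the interior hubs overlapped. That of C0 held the 6.23% of all bins, while that of N2 lay above 3.82%. No share over all listed bins near an end is given, so the end hubs cannot be set apart from chromosome ends in general.

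Hubs had 48 of the 587 trans-interactions in C0, 0 of 98 in N1 and 41 of 1518 in N2. At C0, 37 of the 48 joined an end of a chromosome to an end of another, and in N2 13 of the 41 did so. The same share over all trans-interactions is not given, so this cannot be read as particular to hubs. Of the trans-interactions of hubs, only 2 joined hub to hub in C0 and 5 in N2. The contacts were few, 4 to 7 per pair in both groups, with a median ratio of 120 times the expected count in C0 and 104 times in N2.

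The hub with the most trans partners was again chr20:1-1000, with 2 in C0, 0 in N1 and 10 in N2. The hubs chr7:1001-2000 and chr28:15001-16000 went the other way, from 6 to 2 and from 5 to 3. Among interior hubs, chr15:838001-839000 had 0 trans partners in C0 and 3 in N2, and chr22:550001-551000 had 0 and 2. Each of these numbers rests on a few contacts per pair.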

How the data were processed

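Hi-C of 6 libraries, 2 per group, was analysed from the cis and trans lists of each group. Per the study's methods, reads were trimmed with Trimmomatic 0.39, mapped to genome version V2 with the ICE package, pooled over the 2 replicates and called with Fit-Hi-C 2.0.8, kept at more than 2 contacts and p- and q-values below 0.01. The methods name larger bins and a larger shortest distance than the 1-kb bins and 2 kb that the lists hold. HiC-Pro and edgeR stand in the submitters' processing notes. The deposited values are raw contact counts per bin pair made by the authors, not scaled for depth, their p-values and q-values, and a score per bin, the bias factor (0.5 to 2, or -1 where none could be used). Further lists by the authors, of pairs common to groups, were left out.

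The expected count of a pair is the Poisson mean that gives the deposited p-value for its contact count. Chromosome lengths are the highest position in any list. The study reports valid read pairs per library, fewest in the N1 libraries and most in those of C0, but they were not used here. The expected counts of a group hold both its depth and its fall-off with distance. Intervals are exact 95% Poisson or binomial intervals (medians by order statistics) and treat pairs as independent, which they are not. With 1 pooled list per group no test between groups was run, and no p-values are compared. Items named are the 10 hubs with the most partners, the 5 largest gains and losses, hubs with 3 or more partners at N1, the top and the longest hub pairs, leading hubs in trans and the chromosome with most hubs. Members, lists and settings were chosen with earlier results of these data known. Alternatives were the partner threshold, q-value, contact minimum, merged neighbours, distance, chromosome 20, matching tolerance, carried contacts and, after seeing the data, the width of the end, hubs listed at both times and N2 contacts carried to N1. Scripts ran in Python 3.11.15 with numpy 2.4.6, pandas 2.3.3 and scipy 1.17.1 and were tested on simulated data.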

Additional observations from a re-analysis of the deposited data

How the results depend on the processing

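Over 15 results and 121 alternative values, 67 stayed within the limits set for a change and 54 moved. With 8 partners there were 192 hubs (90 at C0, 139 at N2) and 49.1% of C0 hub interactions were shared with N2. With 12 partners there were 63 hubs (20 and 55), 522 hub interactions at C0 and 73 at N1, median distances of 9 kb at C0 and 17 kb at N2, and 57.5% shared. With a q-value below 0.001 there were 56 hubs (18 and 48), 377, 53 and 646 hub interactions at C0, N1 and N2, and 58.6% shared. With at least 10 contacts there were 22 hubs at C0, 60.4% were shared, and 50% of end hubs (3 of 6) had fewer partners at N2. With adjacent partners counted as 1 there were 54 hubs (12 and 51), 406, 59 and 781 hub interactions, a median distance of 18 kb at N2, 59.9% of C0 and 31.1% of N2 hub interactions shared, 98% of interior hubs (50 of 51) with more partners at N2, and 53.5% of C0 partners at lower coordinates. With distances of at least 10 kb there were 31 hubs (6 and 30), 138, 5 and 373 hub interactions, median distances of 32.5, 26 and 35 kb, 49.3% and 18.2% shared, 96.4% of interior hubs (27 of 28) with more partners, and 42.8% at lower coordinates. Matches within 1 bin raised the shared parts to 65.7% and 44.3%, and within 5 bins to 81.9% and 61.3%. Carried to the expected counts of another group, hub interactions came to 122 (C0 to N1), 316 (C0 to N2) and 515 (N2 to N1). With ends of 10 kb, 100% of end hubs (12 of 12) had fewer partners at N2. Fewer pairs enter under stricter settings by construction; the cause of the other shifts was not tested. Without chromosome 20, 77 of 87 interior hubs had more partners at N2 and 12 of 15 end hubs had fewer.

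No paired analysis was possible because the lists pool both replicates of a group, so leaving out a replicate was not possible either. Shallow counts limit N1 most: a typical pair of bins 50 kb apart had an expected count of 1.69 in C0, against 0.538 in N1 and 0.959 in N2, so at such distances an absent partner cannot be told apart from one too weak to be listed, although 3 N1 hub interactions of 39 to 961 kb were listed.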
